A study of Arabidopsis thaliana with 8 samples.

Results

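The mitochondrial genome of Arabidopsis thaliana codes for a small set of proteins, and its transcripts were followed here in seedlings that lack the jumonji-family proteins JMJ24, IBM1 or both. Members are the genes of that genome for which a probe set of the ATH1 array names that gene and no other. There were 16 such genes, covered by 23 probe sets, of 13356 genes named in this way on the whole array, and each gene was read from its probe set with the highest mean. The gene table of assembly TAIR10.1 lists 32 protein-coding gene names on the mitochondrial genome, so the members cover part of it. They are 8 subunits of complex I (nad1, nad2, nad4, nad4L, nad5, nad6, nad7 and nad9), 2 subunits of complex IV (cox1 and cox2), 4 factors of cytochrome c maturation (ccmB, ccmFC, ccmFN1 and ccmFN2), the maturase gene matR and mttB. The array's annotation calls the last group by older names, ccb206 for ccmB, ccb452 for ccmFC, ccb382 for ccmFN1, ccb203 for ccmFN2 and orfX for mttB.

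All plants were Col-0, 12 days old and untreated, and RNA came from their aerial parts. They grew at 60% humidity, with a day of 16 h (20 °C) and a night of 8 h (18 °C). Wild type (WT) was set beside plants without JMJ24, plants without IBM1 and plants without either (the double knockout), with 2 arrays for each of the 4 genotypes and 8 in all. The labels give no allele names and do not state that replicates were grown apart, so the p-values reflect the scatter of these particular samples, which may be technical. Of 10 listed leaf markers 2 were measured, RCA and SBPASE, and the mean over both lay between 11.78 and 11.99 on every array. Of 10 root markers only the root hair gene EXPA7 was measured, and it stayed between 2.21 and 2.24, near background. Of 4 shoot meristem markers only CLV3 was measured, at 2.57 on double knockout replicate 1 and 2.3 to 2.32 elsewhere. Of 6 flower markers 0 were measured. So few markers do not settle the make-up of the tissue.

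Mitochondria respire by passing electrons from NADH through complexes I, III and IV to oxygen, and the ATP synthase uses the resulting proton gradient. In plants a few core subunits of these complexes are still made from the mitochondrial genome, and the nucleus codes for the rest. Plant mitochondrial transcripts are made by nuclear-encoded polymerases of the phage type, are spliced, some of them from separate precursor RNAs, and are edited from C to U. Unlike in the cytosol, a poly(A) tail marks a plant mitochondrial transcript for decay. JMJ24 and IBM1 act in the nucleus, where IBM1 removes histone H3 lysine 9 methylation from genes. A copy of much of the mitochondrial genome also lies in nuclear chromosome 2, so a probe set for a mitochondrial gene can also match nuclear sequence. The probe sets of 4 members carry the suffix that Affymetrix gives to sets matching several transcripts.

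Values are log2 GCRMA values, 1 per probe set and array. Each array's lower quartile, between 2.49 and 2.53, served as the mark of values near background, since no detection calls were used here. By that mark 8 members lay above it on all 8 arrays, 5 lay at or below it on all 8, and 3 lay on either side. Each member is the brightest probe set of its gene. Of all 23 probe sets of these genes, 10 lay at or below the quartile on all 8 arrays, against 18.6% of all tested probe sets. Only 3 members, ccmFN1, nad4 and cox1, had a mean above the mean array median of 3.45. Among 69 genes of the chloroplast genome, the other organelle genome on the array, 65 did, and 1 had a mean at or below the mean lower quartile. The median of the means was 2.67 for the mitochondrial members, 8.65 for the chloroplast genes and 3.45 for all probe sets. Probes differ in how strongly they bind, so these counts describe where the probe sets lie on the arrays and do not rank transcripts.

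**Figure D1:**
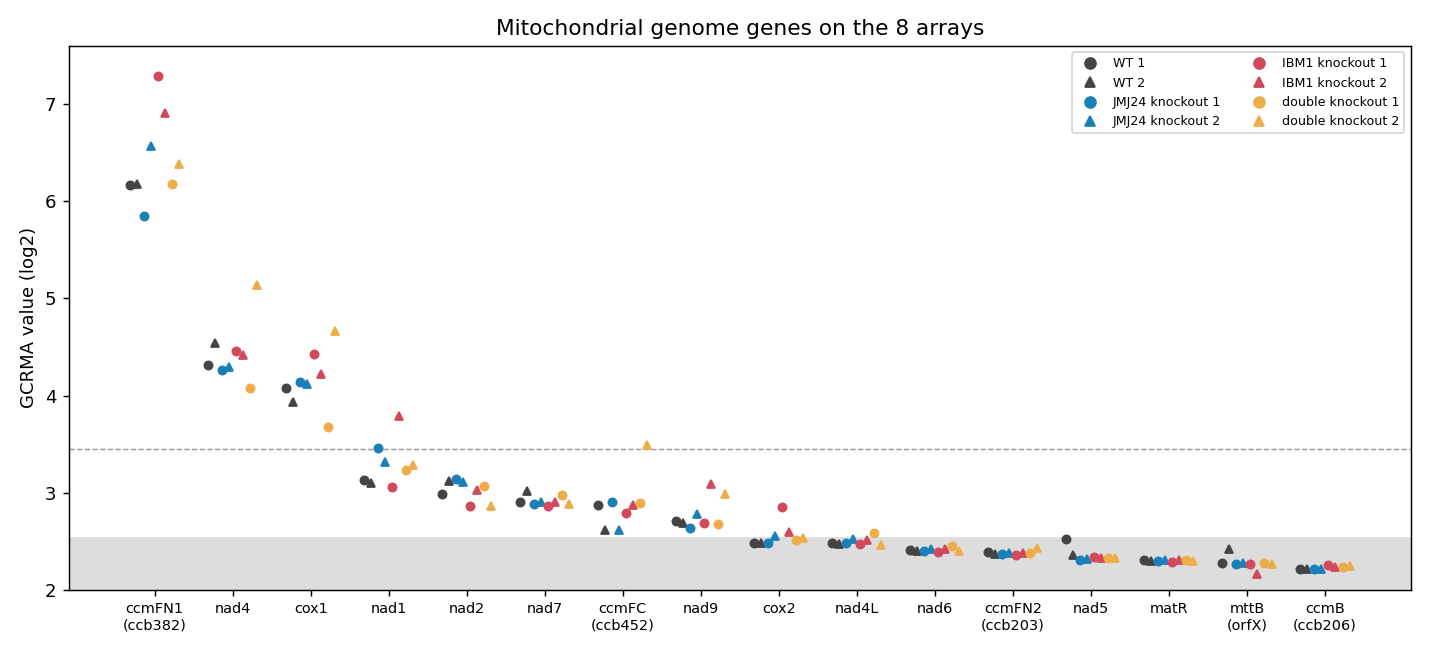
Log2 GCRMA value of each of the 16 mitochondrial genes on the 8 arrays, with genes ordered by mean, colour for genotype, circles for replicate 1, triangles for replicate 2, a grey band up to the highest lower quartile of the arrays (2.53) and a dashed line at the mean array median (3.45). ccmFN1 stands highest, between 5.85 and 7.29, and 6 genes lie in the band on all arrays, of which nad5 exceeded the lower quartile of 1 array itself.

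**Figure D2:**
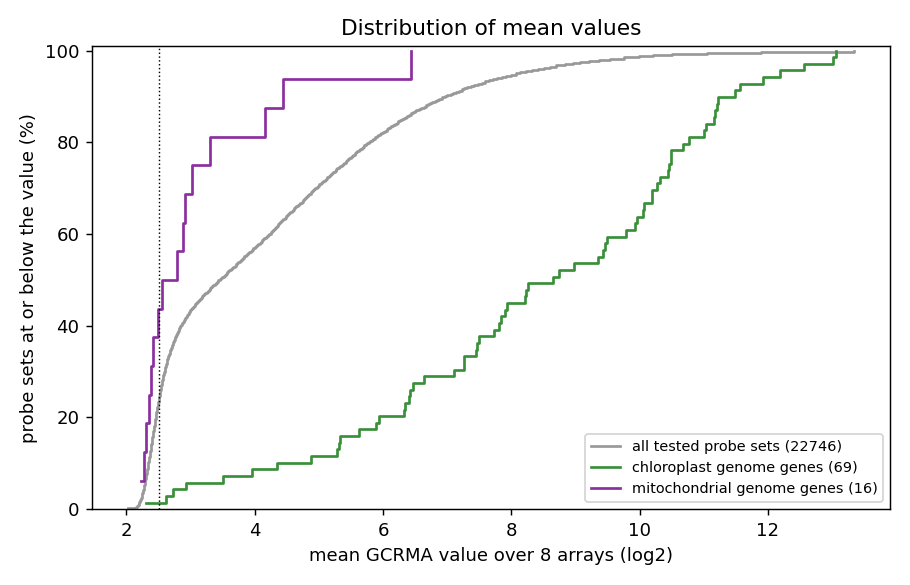
Cumulative share of probe sets (vertical axis, percent) against the mean log2 GCRMA value over 8 arrays (horizontal axis), for all 22746 tested probe sets, 69 chloroplast genes and 16 mitochondrial genes, with a dotted line at the mean lower quartile, 2.51. The mitochondrial genes lie to the left, with a median of 2.67, and the chloroplast genes to the right, with a median of 8.65.

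No mitochondrial gene differed between genotypes past the threshold. Genotype means were compared over all probe sets with limma, and differences with a Benjamini-Hochberg adjusted p under 0.05 were taken as calls. For IBM1 knockout minus WT 0 of the 16 members were called, and 0.334% of all probe sets were. At an unadjusted p under 0.05 limma gave 2 members, both higher, against 14.4% of all probe sets, or 7.39% higher. In such whole-tissue RNA, a change in the share of a cell type and a change in RNA per cell cannot be told apart. For JMJ24 knockout minus WT and for double knockout minus WT the count was 0 members at either threshold, while 0.00879% of all probe sets were called in each and 4.04% and 5.54% had an unadjusted p under 0.05. The lowest adjusted p of any member in any of the 8 contrasts was 0.204. The other pairs, the pooled contrasts and the interaction each had 0 calls among the members too, against 0.242% of all probe sets for double minus IBM1 knockout and 0% for double minus JMJ24 knockout. Of those, double minus IBM1 knockout had 1 member at an unadjusted p under 0.05, against 11.1% of all, and double minus JMJ24 knockout had 0, against 3.35%. For IBM1 loss pooled over JMJ24 status 0.0176% of all probe sets were called, with 1 member and 11.4% of all at an unadjusted p under 0.05. For JMJ24 loss pooled over IBM1 status 0.0615% were called, with 0 members and 7.96% of all at that unadjusted threshold. For the interaction 0.0132% were called, with 0 members and 7.72% of all at that threshold. With 2 arrays per genotype, differences of this size were not resolved, and a p that misses the threshold does not show that the levels were alike.

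The factors of cytochrome c maturation hold the gene that stood out most. They attach haem to cytochromes in the mitochondrion, and ccmFN1, ccmFN2 and ccmFC code for parts of the haem lyase. ccmFN1 measured 6.17 and 6.18 in WT. In the IBM1 knockout it measured 7.29 and 6.91. Without JMJ24 it measured 5.85 and 6.57, and the double knockout gave 6.18 and 6.38. Both IBM1 knockout arrays thus lay above the other 6, while the JMJ24 and double knockouts overlapped with WT. The mean in the IBM1 knockout was 7.10 ± 0.267 (SD, n = 2) against 6.18 ± 0.00917 in WT. The difference of 0.92 on the log2 scale (SE 0.262), a fold of 1.90, did not pass (limma adjusted p = 0.204, unadjusted p = 0.0157). A difference of at least that size in either direction was seen at 2.15% of all probe sets.

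In the double knockout ccmFN1 lay 0.82 below the IBM1 knockout on the log2 scale, a difference of -0.82 (SE 0.262, limma adjusted p = 0.348), and its arrays did not overlap with those of the IBM1 knockout. Double knockout and WT differed by 0.10 (limma adjusted p = 1). The interaction, which asks whether the effect of JMJ24 loss depends on IBM1, was -0.86 (SE 0.370, limma adjusted p = 0.693). Pooled over JMJ24 status, arrays without IBM1 stood 0.50 higher (SE 0.185, limma adjusted p = 0.412), and pooled over IBM1 status the difference for JMJ24 loss was -0.39 (limma adjusted p = 0.715). The JMJ24 knockout arrays lay 0.72 apart, farther than those of any other genotype for this gene. The difference between JMJ24 knockout and WT, 0.03 with both arrays, was 0.39 without JMJ24 knockout replicate 1 and -0.33 without replicate 2, so its sign rested on which array was kept. The pooled difference for IBM1 loss was 0.32 without JMJ24 knockout replicate 1, 0.68 without replicate 2, and 0.27 with JMJ24 knockout replicate 1 and double knockout replicate 2 both left out.

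**Figure D3:**
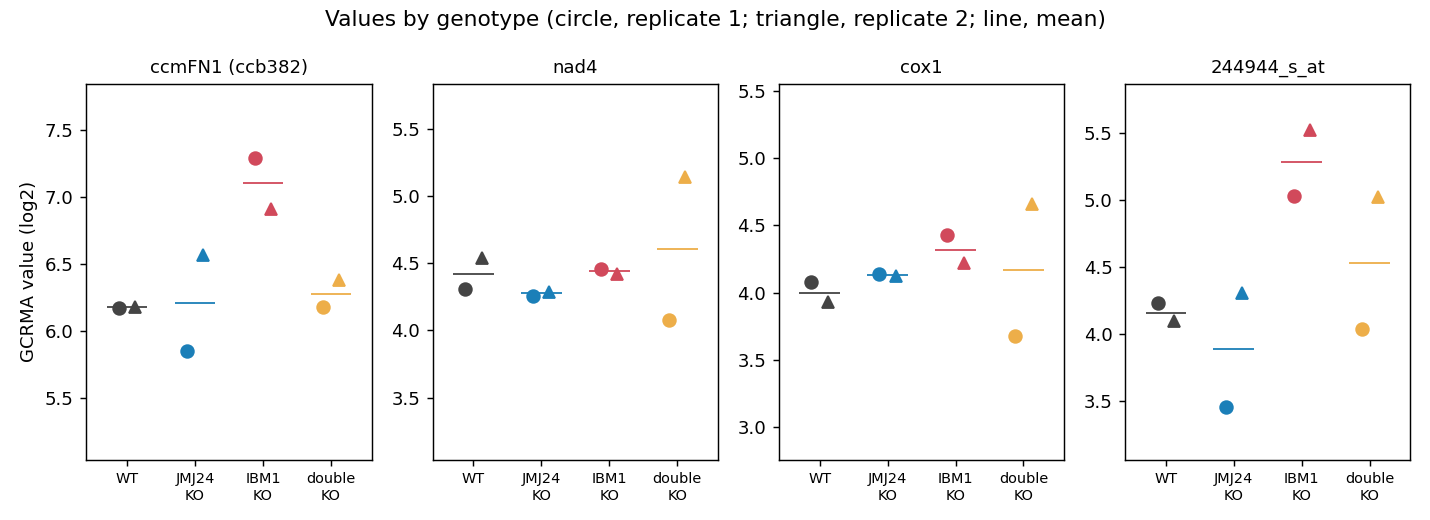
Log2 GCRMA value (vertical axis, the same span of values in each panel) by genotype for ccmFN1, nad4, cox1 and the probe set 244944_s_at, which names a pair of mitochondrial ribosomal protein genes (KO, knockout; circles, replicate 1; triangles, replicate 2; lines, the mean of both). The IBM1 knockout arrays of ccmFN1, at 7.29 and 6.91, lie above all others, and the double knockout arrays of nad4 and cox1 lie far apart.

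The other 3 factors of this group were dimmer. ccmFC measured 2.87 and 2.62 in WT and 2.79 and 2.87 in the IBM1 knockout. The JMJ24 knockout gave 2.90 and 2.62, and the double knockout 2.89 and 3.49. Only double knockout replicate 2 stood clear of the rest, and double knockout minus WT was 0.44 (SE 0.224, limma adjusted p = 1). ccmFN2, between 2.36 and 2.43, and ccmB, between 2.21 and 2.26, stayed under that quartile mark throughout. A pattern like that of ccmFN1 could not be read in these 2 genes.

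Complex I takes electrons from NADH, and its mitochondrially encoded subunits include core subunits of the membrane arm. nad4 measured 4.31 and 4.54 in WT and 4.46 and 4.42 in the IBM1 knockout. The JMJ24 knockout gave 4.26 and 4.29, and the double knockout 4.08 and 5.14. The lowest and the highest of the 8 arrays were thus the replicates of 1 genotype. JMJ24 knockout arrays lay just below those of WT, with a difference of -0.15 (SE 0.340, limma adjusted p = 1), and no difference from WT was larger than 0.18 in size (double knockout, SE 0.340, limma adjusted p = 1).

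nad1, which is joined from separate precursor RNAs, measured 3.13 and 3.10 in WT, and 3.46 and 3.32 in the JMJ24 knockout. The IBM1 knockout gave 3.06 and 3.79, and the double knockout 3.23 and 3.29. The JMJ24 knockout arrays lay above those of WT by 0.28 (SE 0.233, limma adjusted p = 1), while the IBM1 knockout arrays lay on either side of WT, with a difference of 0.31 (limma adjusted p = 0.686). Over all probe sets, 12.4% had both JMJ24 knockout arrays above both WT arrays, and 3 of the 16 members did, namely nad1, cox1 and cox2. Both double knockout arrays lay above both WT arrays for nad1, ccmFC, cox2 and ccmB, 4 of the 16, against 13.1% of all.

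Of the remaining complex I genes, nad9 varied most. It spanned 0.45 over the 8 arrays, against a median span of 0.41 over all probe sets. nad2, also joined from separate precursors, ranged from 2.86 to 3.14, nad7 from 2.86 to 3.02 and nad9 from 2.64 to 3.09. Their differences for IBM1 knockout minus WT were -0.11, -0.08 and 0.19 (limma adjusted p = 0.761, 0.685 and 0.744). nad6 did not exceed the quartile on any of the 8 arrays, and nad4L and nad5 did on 1. The 5 members at or below the quartile throughout lay between 2.16 and 2.45, and each spanned 0.03 to 0.27 over the 8 arrays, so changes in their transcripts would not be seen here unless they rose above background.

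**Figure D4:**
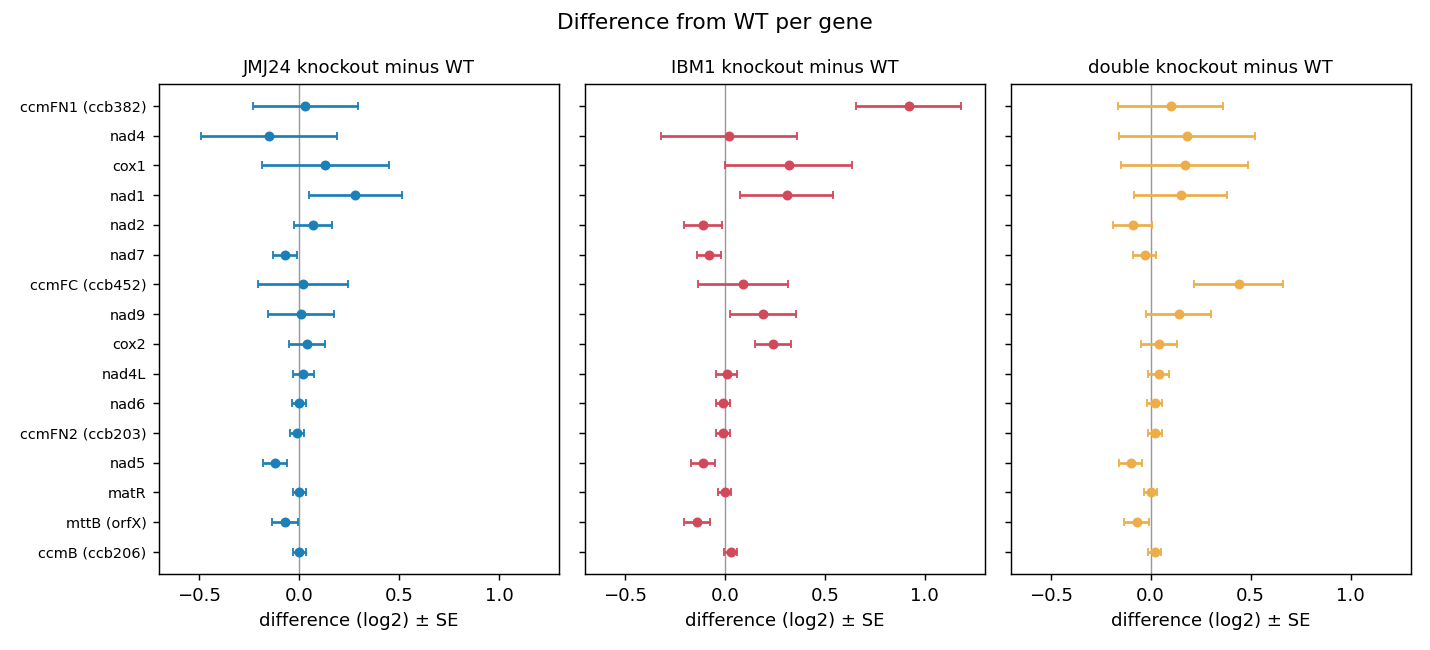
Difference from WT on the log2 scale (horizontal axis, point) with its SE from the limma fit (bar) for each of the 16 genes in the JMJ24, IBM1 and double knockouts. The largest difference is that of ccmFN1 in the IBM1 knockout, 0.92.

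Complex IV passes electrons to oxygen, and cox1 and cox2 code for its catalytic core. cox1 measured 4.08 and 3.93 in WT and 4.43 and 4.22 in the IBM1 knockout. The JMJ24 knockout gave 4.14 and 4.12, and the double knockout 3.68 and 4.66. The IBM1 knockout arrays lay above those of WT by 0.32 (SE 0.317, limma adjusted p = 0.817). As for nad4, the lowest and the highest array both belonged to the double knockout. cox2 measured 2.48 on both WT arrays and 2.85 and 2.59 without IBM1. The JMJ24 knockout gave 2.48 and 2.55, and the double knockout 2.51 and 2.53. It was the other member with an unadjusted p under 0.05 for IBM1 loss, at 0.24 (SE 0.0903, limma adjusted p = 0.324), and both of its WT values were near background. In all, 4 of the 16 members had both IBM1 knockout arrays above both WT arrays, against 19.2% of all probe sets. They were ccmFN1, cox1, cox2 and ccmB. Another 2, nad5 and mttB, had both below, against 18.7% of all. Of these genes, ccmB and mttB lay near background on all 8 arrays and nad5 on 7.

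matR, which codes for a maturase that helps splice mitochondrial introns, and mttB, which codes for a membrane protein of the twin-arginine transport type, did not exceed the quartile on any array. matR ranged over 0.03 and mttB over 0.27 on the log2 scale.

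The remaining differences from WT in the brighter members were small, each with a limma adjusted p of 1. In the JMJ24 knockout cox1 differed by 0.13, nad2 by 0.07 and nad7 by -0.07. In the double knockout cox1 differed by 0.17, nad2 by -0.09 and nad7 by -0.03. Pooled over JMJ24 status, IBM1 loss went with 0.26 for ccmFC (limma adjusted p = 0.681), 0.18 for cox1 (0.930), -0.14 for nad2 (0.562) and -0.02 for nad7 (1). Pooled over IBM1 status, JMJ24 loss went with 0.19 for ccmFC (limma adjusted p = 0.954), 0.05 for nad1 (1), 0.05 for nad2 (1), -0.08 for cox2 (0.942) and -0.03 for nad9 (1). None of these passed the threshold.

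Over the 16 members the median difference was 0.01 for IBM1 knockout minus WT, 0.00 for JMJ24 knockout minus WT and 0.03 for double knockout minus WT. Over all probe sets it was -0.01, 0.00 and 0.00. The chloroplast genes had medians of -0.13, -0.07 and -0.03, with 0 of 69 called in each of the 3 contrasts by limma and 5, 0 and 0 at an unadjusted p under 0.05.

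The replicates of the double knockout lay far apart for nad4, cox1 and ccmFC, though not for ccmFN1 and nad1, with gaps of 0.21 and 0.06. Replicate 2 was the highest of all 8 arrays for 4 of the 16 members, nad4, cox1, ccmFC and ccmFN2, against 7.59% of all probe sets. For nad4, cox1 and ccmFC, replicate 2 exceeded replicate 1 by 1.07, 0.98 and 0.60, and a gap of at least 0.5 in that direction was seen at 5.47% of all probe sets. In all, 9 of the 16 members were higher on replicate 2, against 34.3% of all probe sets, and the median gap was 0.02 for the members and -0.02 for all probe sets. The same arrays differed in chloroplast transcripts and in several control probe sets. Of the chloroplast genes, 63 of 69 were higher on replicate 2, by 0.53 at the median, and the control for 25S ribosomal RNA measured 10.02 on replicate 1 and 10.91 on replicate 2. The controls for the 5′, middle and 3′ parts of GAPDH mRNA were higher on replicate 2 by 1.02, 0.57 and 0.75. The control for 5S ribosomal RNA, at 2.73 and 2.71, differed by -0.03. The part of these shifts in the values of the mitochondrial genes was not tested.

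Other quantities also set the IBM1 knockout arrays apart from the rest. The control for 5S ribosomal RNA measured 3.80 and 3.57 there and between 2.65 and 2.73 on the other 6 arrays. The total RNA yields in the labels were lower for the IBM1 knockout, at 24 and 16.2 µg, than elsewhere, at 27 to 45.5 µg. The part of either quantity in the ccmFN1 difference was not tested. The genes outside the mitochondrial genome whose values were most like those of ccmFN1 over the 8 arrays were AT1G28540, AT4G18250 and AT2G28510, with Pearson correlations of 0.960, 0.945 and 0.942. These describe 8 arrays in 4 genotypes, with AT4G18250 spanning only 0.12 on the log2 scale, and AT1G28540 was higher in the IBM1 knockout on both arrays, at 4.43 and 4.38, than on any other.

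Probe sets of the same gene differed. nad1 had 7, with means from 2.13 to 3.30, of which 4 never exceeded the quartile. Its probe set 257323_at, used above, was highest on IBM1 knockout replicate 2, at 3.79, whereas 257324_at was highest on double knockout replicate 2, at 2.99. nad5 had 2 probe sets, with means of 2.36 and 2.24, and the brighter exceeded the quartile on 1 WT array. Taking the mean over the probe sets of a gene gave 0 calls in every contrast as well.

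**Figure D5:**
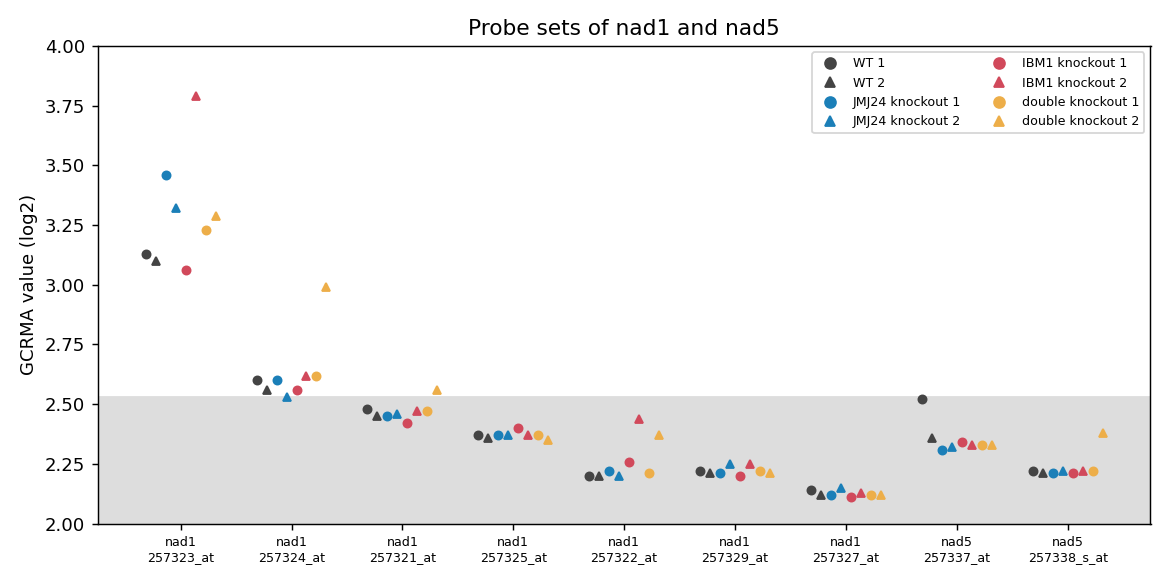
Log2 GCRMA value (vertical axis) on the 8 arrays for the 7 probe sets of nad1 and the 2 of nad5, with colour for genotype, circles for replicate 1, triangles for replicate 2 and a grey band up to the highest lower quartile of the arrays. 257323_at lies highest, and its highest array is IBM1 knockout replicate 2, at 3.79.

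A further 12 probe sets name a mitochondrial gene together with another gene, a nuclear locus in 11 of them, and are not members. Their means ran from 2.25 to 5.85, and limma called 0 of them in any contrast. The probe set 244944_s_at names a pair of mitochondrial ribosomal protein genes that lie next to each other, between ccmB and nad9 in the gene table. It measured 4.23 and 4.10 in WT and 5.03 and 5.52 in the IBM1 knockout. The JMJ24 knockout gave 3.46 and 4.31, and the double knockout 4.04 and 5.02. Both IBM1 knockout arrays lay above all others, with a difference from WT of 1.11 (SE 0.432, limma adjusted p = 0.337). Of its neighbours, ccmB lay near background on all arrays and nad9 stood at 2.69 and 3.09 in the IBM1 knockout and 2.71 and 2.69 in WT. ccmFN1 has ccmC and cox3 as its nearest protein-coding neighbours, and neither is measured under a single name.

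The nuclear genes of the same pathways were taken from lists and limma called 0 of them in each of the 8 contrasts. Of 23 listed nuclear subunits of the respiratory chain and ATP synthase 9 were measured, with a median difference of 0.33 for IBM1 knockout minus WT, and 5 had an unadjusted p under 0.05, all higher. Over all probe sets the median was -0.01, and 14.4% had an unadjusted p under 0.05, 7.39% of all being higher. The lowest adjusted p was that of AT1G51650, the epsilon subunit of the ATP synthase. It measured 8.41 and 8.53 in WT and 9.04 and 9.0 without IBM1. The JMJ24 knockout gave 8.34 and 8.46, and the double knockout 8.66 and 8.73. The IBM1 knockout arrays were the highest, with a difference from WT of 0.55 (SE 0.0658, limma adjusted p = 0.0639). SDH1-1, the flavoprotein subunit of complex II, differed by 0.72 (SE 0.236, limma adjusted p = 0.261). CYTC-1, which codes for a cytochrome c, a protein that the ccm factors serve, differed by 0.41 (SE 0.0754, limma adjusted p = 0.110). The other cytochrome c gene, CYTC-2, differed by only 0.09 (SE 0.0891, limma adjusted p = 0.838). AT5G47030, the delta subunit of the ATP synthase, differed by -0.04 and was the only measured gene of this list that was lower. The double knockout, which also lacks IBM1, had a list median of 0.05 against WT and -0.25 against the IBM1 knockout. With limma, 2 and 4 of the 9 genes had an unadjusted p under 0.05, against 5.54% and 11.1% of all probe sets. In the double knockout SDH1-1 differed from WT by 0.15 and CYTC-1 by 0.10.

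Alternative NAD(P)H dehydrogenases and oxidases let electrons bypass the proton-pumping complexes. Of 12 genes listed for this alternative respiration 5 were measured, all of them NAD(P)H dehydrogenases (NDB1, NDB2, NDB3, NDB4 and NDC1) and none an oxidase. Their median difference was -0.02 for IBM1 knockout minus WT. Of 12 genes for expression and upkeep of the mitochondrial genome 4 were measured, with a median of 0.06. Of 10 genes of the mitochondrial stress response 4 were measured, among them NDB4 again, with a median of -0.01. None of these had an unadjusted p under 0.05 in that contrast with limma. AT2G21640, a gene induced by oxidative stress, stood 0.79 above WT (SE 0.413, limma adjusted p = 0.513), and AT5G09570, which codes for a small twin-cysteine protein, differed by -0.58 (limma adjusted p = 0.520).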

How the data were processed

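RNA from 8 samples was amplified, labelled with biotin and hybridised to ATH1 arrays, per the labels. The deposited table holds log2 values that the authors made with GCRMA, per the submitters' processing notes; GCRMA removes background by probe sequence, quantile normalises and summarises each probe set. Its version and the labelling primer are not given in the sources used here. The number of arrays limits the precision.

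Of 22810 probe sets 64 controls were left out. The platform annotation gives 1 gene for 13513 probe sets, several for 503 and none here for 8730. Its IDs for the 16 members are not in the gene table, so current (11) or older (5) symbols were matched to that table's mitochondrial genes. Probe sets for JMJ24 and IBM1 are unnamed here, so the knockouts were not checked.

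limma 3.58.1 (R 4.3.3) was fitted to all 22746 remaining probe sets and 8 arrays (4 residual degrees of freedom, prior 1.2) and tested on simulated data. The 8 contrasts were 5 pairs, each loss pooled over the other, and their interaction. Named with values were, among members above background, the 3 largest rises and falls from WT and per pooled loss, the 2 brightest per role, genes with several probe sets and neighbours. Members, lists and rules were chosen with earlier results of these data known.

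Alternatives were centring by array medians, a further quantile normalisation, limma-trend, fits of only the compared groups, dim probe sets removed (no group mean of at least 5), a replicate block, each array left out, and means over a gene's probe sets.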

Additional observations from a re-analysis of the deposited data

Results flagged for a closer look

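cox2 was picked out because every array moved in opposite directions with JMJ24 loss in the presence and in the absence of IBM1. Both JMJ24 knockout arrays lay above both WT arrays and both double knockout arrays lay below both IBM1 knockout arrays, though the WT arrays and the lower JMJ24 knockout array all round to 2.48. The difference itself was tested by the interaction, -0.24, and did not pass (limma adjusted p = 0.807), and 4 of the 8 values were near background.

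Another 2 probe sets, outside the members, were picked out because both IBM1 knockout arrays lay above both WT arrays with an unadjusted p under 0.05. They were 244944_s_at, described above, at 1.11 (limma adjusted p = 0.337), and 265228_s_at, which names a mitochondrial gene of the ATP synthase and a nuclear locus, at 0.43 (SE 0.102, limma adjusted p = 0.154). Both come from the 12 probe sets that name a mitochondrial gene together with another gene. Of those 12, 6 had both IBM1 knockout arrays above both WT arrays, against 19.2% of all probe sets. With limma, 7.39% of all probe sets were higher at an unadjusted p under 0.05. Groups of 2 arrays are too small to judge a single array against its group.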

How the results depend on the processing

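The count of called members was 0 in each contrast to which an alternative was applied, which was all 8 except that the fit of only the compared groups was run for the 5 pairs and the crossed pairing for 1. This includes leaving out any array, and leaving out JMJ24 knockout replicate 1 and double knockout replicate 2 together, a choice made after seeing the data. The lowest adjusted p of a member under any of them was for IBM1 knockout minus WT without IBM1 knockout replicate 1. It belonged to a gene other than ccmFN1, and the lone IBM1 knockout array is assumed there to vary like the other groups. The ccmFN1 difference in that fit was 0.74. Apart from the filter on dim probe sets, the median difference of the members stayed between -0.02 and 0.05 in these contrasts. That filter leaves 1 member, ccmFN1, so the median becomes its value: 0.92 for IBM1 knockout minus WT, 0.10 for double knockout minus WT, -0.82 for double minus IBM1 knockout, 0.068 for double minus JMJ24 knockout, 0.50 and -0.39 for the pooled losses of IBM1 and JMJ24, and -0.86 for the interaction. The ccmFN1 difference between IBM1 knockout and WT lay between 0.74 and 1.11, with adjusted p of at least 0.0820.

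Same-numbered arrays of the JMJ24 and double knockouts deviated from their group means with a correlation of -0.31. The other 5 pairs of genotypes gave 0.0367 to 0.208. These values do not settle whether the replicate numbers pair the samples. With the replicate number as a block, 0 members were called in each contrast. With the numbers of the double knockout crossed, an alternative added after seeing the data, 0 were called for double minus JMJ24 knockout. Background correction could not be varied, since only normalised values were used, and changes in genes near background would not be seen.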
